A study of Mus musculus with 26 samples.

Results

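The 10 genes described here encode homeodomain, paired domain and basic helix-loop-helix transcription factors that mark stripes along the dorsoventral axis of the neural tube: Nkx2-2, Nkx6-1, Nkx6-2, Olig2, Dbx1, Dbx2, Irx3, Pax7, Msx1 and Gsx1. They were taken by symbol from the 55141 genes of the deposited count table, and each symbol matched 1 gene. The 26 libraries hold polyadenylated RNA from mouse gastruloids, and Nkx6-1, Dbx2, Irx3, Pax7 and Msx1 had counts in all 26. Gsx1, which marks dorsal interneuron progenitors, had 9 counts in all, spread over 6 libraries. It is therefore given as not measurable at this depth, and the values below are for the other 9 genes.

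A gastruloid is an aggregate of mouse embryonic stem cells that elongates in culture and forms tissues of the trunk and tail, neural tube among them. The libraries fall into 15 groups of line and hours after aggregation, and 8 groups hold 1 library. All 8 lines, the reference line included, carry the allele HoxB Del/Del(i9-13), and no line without it was used. Del is the reference line and has that allele alone. Ins carries Ins(CBS5-10) in addition. On top of Ins(CBS5-10), the line InsDel5to10 has Del(CBS5-10), the line InsDel7to10 has Del(CBS7-10), and the line InsDel8to10 has Del(CBS8-10). The inversion lines, InvClone1 and InvClone2, are clone 1 and clone 2 with Inv(CBS5-10) on the insertion, and InvDel7to10 has Del(CBS7-10) on that inverted allele. The 18 libraries at 120h are 4 of InvClone1, 3 of Del, 3 of Ins, 2 of InsDel5to10, 2 of InsDel7to10, 2 of InvClone2, 1 of InsDel8to10 and 1 of InvDel7to10. The 6 libraries at 144h are 2 of InvClone1 and a single one of the Del, Ins, InsDel8to10 and InvDel7to10 lines. The remaining 2 are InvClone1 at 96h and at 168h. Each edited line other than the 2 inversion clones is a single line in the labels, so an effect of the edit and an effect of the line cannot be told apart.

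Total counts ran from 18746411 to 37716547 per library. CPM below are counts scaled to a common library size after TMM, and 3 counts, the highest mean that an observed count of 0 allows at 95% confidence, correspond to 0.0778 to 0.165 CPM. Library names in the labels form 4 sets, ISML_first, ISML_second, ISML_third and TruSeq_second, and the last was made with another kit. InvClone1 at 144h, replicate 2 had a mitochondrial share of 0.0864%, against 0.587% to 1.51% in the other libraries, and InvClone1 at 120h, replicate 2 (TruSeq_second) had counts in 54.8% of genes against 37.5% to 43.4%. Hoxb13, the gene whose insulation the series title names, averaged 62.2 ± 27.6 CPM in Del (SD, n = 3) and 28.6 ± 10.1 CPM in InsDel5to10 (n = 2) at 120h, and the means of the other 6 lines ran from 0.507 to 5.08 CPM. Nothing in the labels tells whether replicates are separate cultures, so the p-values measure only the spread between these libraries, which may be technical.

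In the embryo, Sonic hedgehog from the notochord and floor plate induces Nkx2-2, Nkx6-1, Nkx6-2 and Olig2 in ventral progenitors and keeps Pax7 out of them, while BMP and Wnt signals from the roof plate maintain Msx1 and other dorsal genes. Dbx1 and Dbx2 mark progenitors between these poles, and Irx3 covers a broad territory above the motor neuron domain. Several of these factors repress each other, so that each stripe has a sharp border. None of the genes is private to the neural tube: Nkx2-2 and Nkx6-1 are also pancreatic factors, Pax7 also marks dermomyotome and neural crest, and Msx1 is also active in mesoderm and tailbud. In such bulk samples, fewer cells of a type and less RNA per cell cannot be told apart.

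The 5 lines Del, Ins, InsDel8to10, InvClone1 and InvDel7to10 each had 1 library at 120h and 1 at 144h in the ISML_second set, and the stages were compared within line. Ventral and intermediate genes rose from 120h to 144h in all 5 lines, Dbx1 and Dbx2 by the largest folds, while Msx1 fell in all 5 lines. In the edgeR quasi-likelihood fit with line and stage as terms, 15.2% of the 15011 genes tested passed an adjusted p of 0.05, 9.25% as higher and 5.94% as lower at 144h. Of the 10 listed genes 9 were tested, but Nkx2-2 and Dbx2 passed the filter on low counts only through their 144h libraries, so a difference was built into their being tested and their values are a description. Of the other 7 genes, 6 were called higher and 1 lower, and all 7 had an unadjusted p under 0.05, against 28.7% of all genes. Among these 7, the CPM of the stages did not overlap for 5 genes that were higher and 1 that was lower, as for 8.67% and 9.17% of all genes. The median log2 fold change was 1.94 over these 7 genes and -0.01 over all genes tested.

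**Figure D1:**
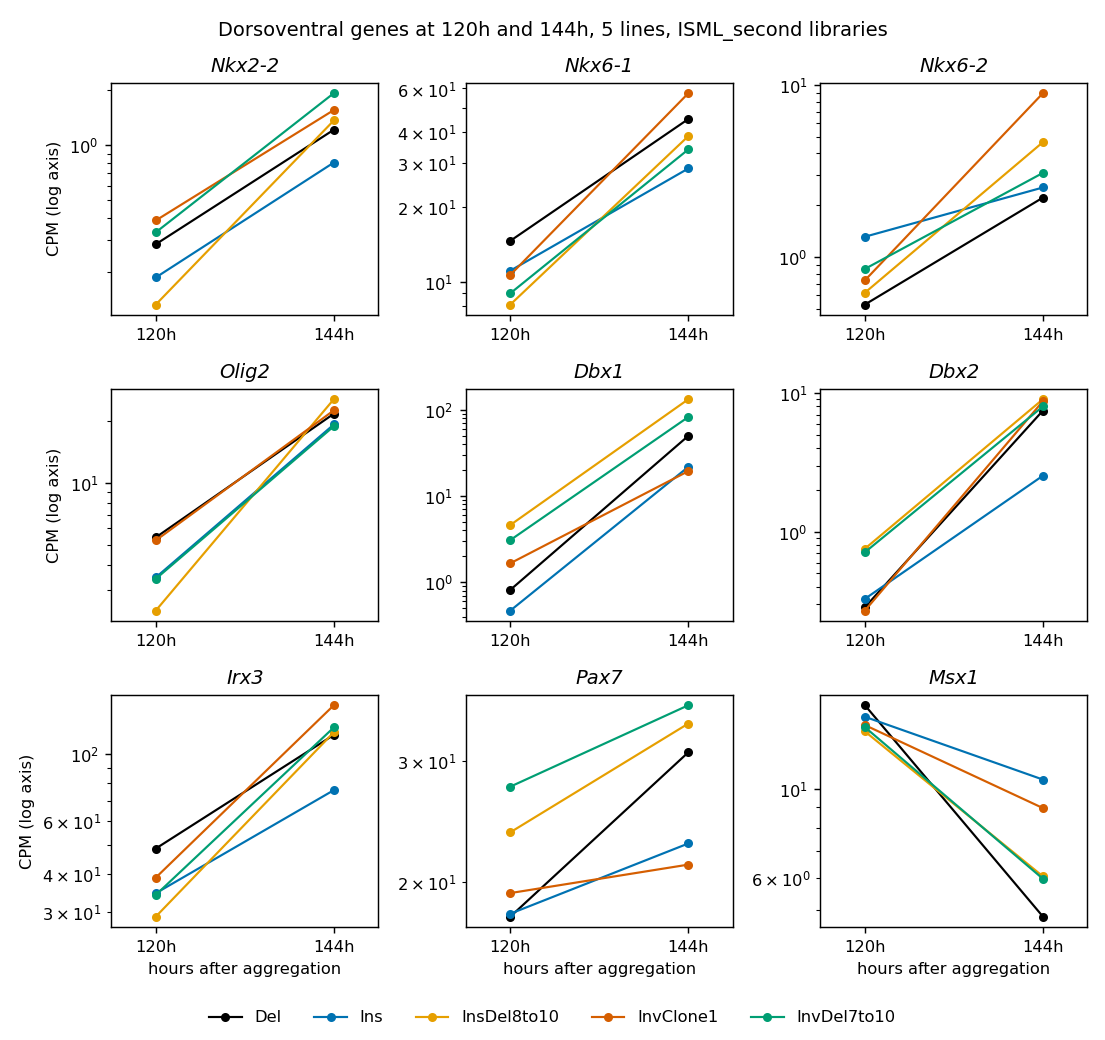
CPM (log axis) of 9 genes at 120h and 144h in the ISML_second libraries, with 1 point per library and 1 line joining the 2 libraries of each of 5 lines. All 5 lines rise in the panels of Nkx2-2, Nkx6-1, Nkx6-2, Olig2, Dbx1, Dbx2, Irx3 and Pax7 and fall in that of Msx1, and the 2 stages overlap only in the Pax7 panel.

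Nkx6-1 is a homeodomain repressor that sets the ventral progenitor territory. Its level went from 14.6 to 45.2 CPM in Del, 11.1 to 28.6 in Ins, 8.12 to 38.6 in InsDel8to10, 10.7 to 57.4 in InvClone1 and 9.02 to 34.1 in InvDel7to10. Every 144h library was above every 120h library, with ratios from 2.58 to 5.37. This was a log2 fold change of 1.94 ± 0.16 (SE), with an edgeR adjusted p of 2.14e-04.

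Olig2 specifies motor neuron progenitors and is the defining gene of their domain. It went from 5.43 to 21.6 CPM in Del, 3.47 to 19.2 in Ins, 2.40 to 25.4 in InsDel8to10, 5.25 to 22.4 in InvClone1 and 3.42 to 18.8 in InvDel7to10. The 144h libraries lay close together and above all 120h libraries, and the log2 fold change was 2.47 ± 0.20 (edgeR adjusted p = 1.76e-04). Olig2 and Nkx6-1 were the members whose levels followed each other most closely over all libraries, which is why the upstream sequence of Olig2 is shown. The 250 bases before its start are chr16:91225300-91225549 on the plus strand of GRCm38.p6, from RefSeq, and the last 94 of them lie inside the gene span of the deposited table.
Olig2: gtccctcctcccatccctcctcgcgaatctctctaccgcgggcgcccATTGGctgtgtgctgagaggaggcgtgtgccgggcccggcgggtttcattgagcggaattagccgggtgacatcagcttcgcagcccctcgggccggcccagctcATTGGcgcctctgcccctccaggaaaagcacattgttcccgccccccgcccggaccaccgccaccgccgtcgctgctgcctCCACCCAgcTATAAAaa
Capitals mark matches to motifs that were searched on both strands, and no match overlaps another. The core of the site bound by Gli proteins, the transcription factors of the Hedgehog pathway, was searched as TGGGTGG and stands at bases -17 to -11 on the opposite strand. The TATA box was searched as TATAAA and stands at bases -8 to -3. The CCAAT box stands at bases -203 to -199 and -98 to -94, both on the opposite strand. The TATA box and the CCAAT box were added to the search after the sequences had been seen.

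Nkx6-2, a paralog of Nkx6-1 with a narrower territory, was scarce at 120h, at 0.530 CPM in Del, 1.31 in Ins, 0.621 in InsDel8to10, 0.733 in InvClone1 and 0.854 in InvDel7to10. At 144h the same lines held 2.22, 2.54, 4.65, 8.95 and 3.08 CPM. The stages did not overlap, but the rise differed between lines, from 1.93-fold in Ins to 12.2-fold in InvClone1. In the fit this gave a log2 fold change of 2.30 ± 0.37 (edgeR adjusted p = 0.00473).

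Nkx2-2 marks the progenitors next to the floor plate and stayed the rarest of the ventral genes. It went from 0.286 to 1.22 CPM in Del, 0.188 to 0.803 in Ins, 0.133 to 1.37 in InsDel8to10, 0.386 to 1.56 in InvClone1 and 0.332 to 1.93 in InvDel7to10. These are 3 to 10 counts per library at 120h. The log2 fold change was 2.37 ± 0.27.

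Dbx1, the determinant of the progenitors of V0 interneurons, changed the most. It stood at 0.816 CPM in Del, 0.469 in Ins, 4.62 in InsDel8to10, 1.66 in InvClone1 and 3.08 in InvDel7to10 at 120h. At 144h these lines held 49.97, 21.8, 133, 19.5 and 82.6 CPM. The 2 lines highest at 120h, InsDel8to10 and InvDel7to10, were also the 2 highest at 144h, and the ratios ran from 11.7 in InvClone1 to 61.2 in Del. Its log2 fold change, 4.84 ± 0.28, was the largest of the 9 (edgeR adjusted p = 5.2e-05).

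Dbx2, its paralog with a wider territory, went from 0.286 to 7.47 CPM in Del, 0.328 to 2.54 in Ins, 0.755 to 9.03 in InsDel8to10, 0.270 to 8.74 in InvClone1 and 0.712 to 8.01 in InvDel7to10. Ins stood below the other 4 lines at 144h, and the ratios ran from 7.73 to 32.4. Dbx2 had a log2 fold change of 3.95 ± 0.29. Dbx1 and Dbx2 were the other pair that moved closely together, and the upstream window of Dbx1 is chr7:49636836-49637085 on the minus strand of GRCm38.p6 (RefSeq), with 14 of its bases inside the deposited gene span.
Dbx1: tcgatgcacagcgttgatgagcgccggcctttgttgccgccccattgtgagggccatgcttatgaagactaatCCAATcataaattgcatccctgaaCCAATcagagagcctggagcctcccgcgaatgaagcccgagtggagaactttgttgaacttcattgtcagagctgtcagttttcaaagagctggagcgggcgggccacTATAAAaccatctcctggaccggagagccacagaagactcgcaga
Capitals mark the TATA box at bases -45 to -40 and the CCAAT box at -177 to -173 and -153 to -149, all on the gene's own strand. All 10 genes had a RefSeq window, and those of Nkx6-1, Dbx2, Irx3 and Pax7 lie wholly inside the gene span of the deposited table and are not printed. The Gli core was found in the windows of Olig2 and Gsx1, 2 of 10, and in 8.11% of the 32851 windows of the same length searched on both strands. A core bound by many homeodomain proteins, TAATTA, was in 0 of 10 and in 4.84% of all windows. The TATA box was in 2 of 10, Dbx1 and Olig2, and in 12.4% of all windows. The CCAAT box, searched as CCAAT, was in 4 of 10, Dbx1, Msx1, Nkx6-2 and Olig2, and in 33.8% of all windows. A match describes the letters only and shows no binding.

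Irx3, a repressor of the motor neuron fate with a broad intermediate and dorsal territory, had the highest mean FPKM (the authors' level per transcript length) of the genes at both stages. It went from 48.6 to 116 CPM in Del, 34.5 to 76.0 in Ins, 28.9 to 118 in InsDel8to10, 38.9 to 146 in InvClone1 and 34.1 to 123 in InvDel7to10. The stages did not overlap, and Ins had both the lowest 144h level and the smallest ratio, 2.202. Irx3 had a log2 fold change of 1.66 ± 0.15 (edgeR adjusted p = 2.71e-04).

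Pax7, a paired domain factor of dorsal progenitors, moved little. It went from 17.8 to 30.9 CPM in Del, 18.01 to 22.8 in Ins, 23.7 to 34.1 in InsDel8to10, 19.3 to 21.2 in InvClone1 and 27.6 to 36.2 in InvDel7to10. It was higher at 144h in 5 of 5 lines, but the stages overlapped and the ratios were 1.10 to 1.73. The log2 fold change was 0.46 ± 0.10 (edgeR adjusted p = 0.0178). This call was lost without the line term (0.47, edgeR adjusted p = 0.0872) and in limma on the authors' FPKM (0.37, adjusted p = 0.113). It was also lost when either library of Ins, InsDel8to10, InvDel7to10 or Del was left out, with edgeR adjusted p from 0.0504 to 0.0809.

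Msx1, a homeodomain target of BMP signalling in the dorsal midline and in mesoderm, was the 1 gene called lower. It went from 16.1 to 4.82 CPM in Del, 15.1 to 10.5 in Ins, 13.8 to 6.06 in InsDel8to10, 14.4 to 8.95 in InvClone1 and 14.2 to 5.98 in InvDel7to10. The 120h libraries lay within a narrow band above all 144h libraries. Msx1 had a log2 fold change of -1.04 ± 0.18 (edgeR adjusted p = 0.00694).

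Levels of different genes were compared on the authors' FPKM, which are scaled to transcript length, as the mean ± SD over the 5 ISML_second libraries of a stage. At 120h the level of Irx3 was 11.3 ± 2.25 FPKM, that of Msx1 6.32 ± 0.354, that of Pax7 3.10 ± 0.596 and that of Nkx6-1 2.83 ± 0.678. Pax7 and Nkx6-1 thus lay within 1 SD of each other. Below them followed Olig2 at 1.21 ± 0.375 FPKM and Dbx1 at 0.813 ± 0.615, which overlapped, then Nkx6-2 at 0.433 ± 0.201, and Nkx2-2 and Dbx2, which were indistinguishable at 0.140 ± 0.0658 and 0.106 ± 0.0646. At 144h Irx3 was still first at 36.0 ± 6.73 FPKM and Dbx1 had moved to the second place at 23.4 ± 18.1, an SD that reaches both neighbours. Nkx6-1 stood at 10.7 ± 2.58 FPKM and Olig2 at 6.86 ± 0.833, above Pax7 at 4.09 ± 1.03 and Msx1 at 3.16 ± 1.02. Msx1 thus went from the second to the sixth place among the 9 genes. The lowest FPKM at 144h were those of Nkx6-2 at 2.33 ± 1.56, Dbx2 at 1.63 ± 0.622 and Nkx2-2 at 0.521 ± 0.144.

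InvClone1 also gave 1 library at each of 96h, 120h, 144h and 168h in the ISML_third set, which the stage fit did not use. With 1 library per time these series have no replicate check and are given as values. Nkx6-1 read 0.365, 0.969, 13.0 and 39.4 CPM at the 4 times, and Olig2 read 0.0406, 0.554, 15.9 and 33.6. Both ventral genes were under 1 CPM until 120h and above 10 CPM from 144h on. Dbx1 read 0, 0.323, 50.3 and 205 CPM and Dbx2 read 0.162, 0.415, 5.90 and 14.8. At 168h Dbx1 had its highest CPM of all 26 libraries. Irx3 read 3.98, 8.91, 49.5 and 93.0 CPM, Pax7 read 4.71, 23.7, 43.5 and 37.6, and Msx1 read 7.38, 6.88, 1.73 and 0.963. Pax7 was thus already at 23.7 CPM at 120h, when Nkx6-1, Olig2, Dbx1 and Dbx2 were each under 1 CPM, and Msx1 went down after 120h. Between 120h and 144h the direction was that of the ISML_second libraries for Nkx6-1, Olig2, Dbx1, Dbx2, Irx3, Pax7 and Msx1.

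**Figure D2:**
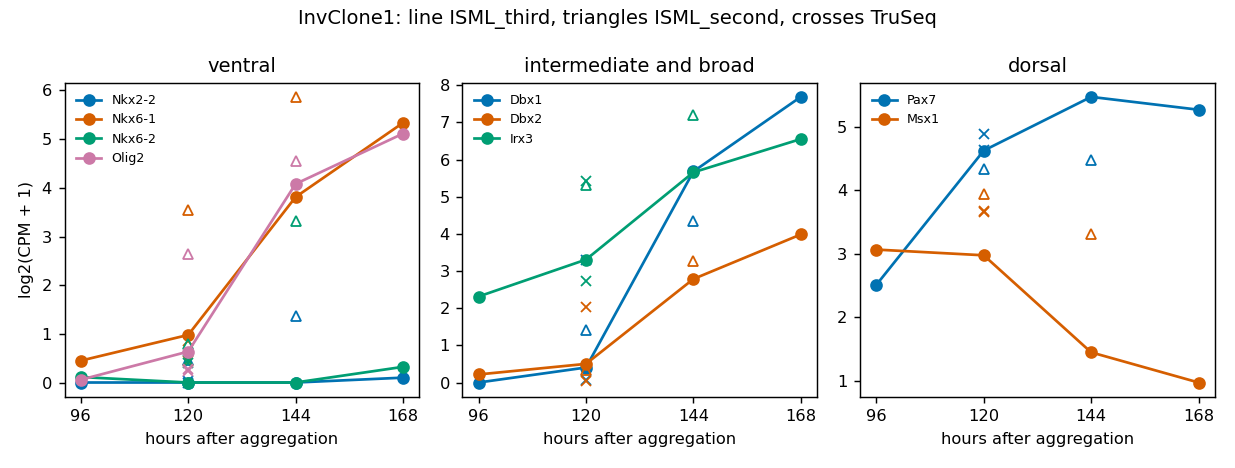
log2(CPM + 1) of 9 genes in InvClone1 against hours after aggregation, in panels for ventral, intermediate and broad, and dorsal genes. Filled circles joined by lines are the ISML_third libraries (1 per time), open triangles the ISML_second libraries and crosses the TruSeq_second libraries. Nkx6-1, Olig2, Dbx1 and Dbx2 climb after 120h, Pax7 climbs from 96h to 144h, Msx1 falls after 120h, and the Nkx2-2 and Nkx6-2 lines stay near 0.

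Nkx2-2 and Nkx6-2 set this series apart. Nkx2-2 read 0, 0, 0 and 0.0713 CPM and Nkx6-2 read 0.0811, 0, 0 and 0.250 CPM at the 4 times, while Nkx6-1 and Olig2 rose. At 144h the ISML_third library of InvClone1 had 0 counts of each, and the ISML_second library of the same line and time had 30 counts of Nkx2-2 (1.56 CPM) and 172 of Nkx6-2 (8.95 CPM). A count of 0 in the ISML_third library allows a level of up to 0.133 CPM (3 counts). Markers of several other cells, but not of all, were also higher in the ISML_second library. The largest move was that of 9 lateral mesoderm and heart genes, which summed to 5.36 CPM in the ISML_third library and 66.1 in the other. The summed level of 9 endoderm and pancreas genes was 89.6 CPM in the ISML_third library and 238 in the other, and that of 7 notochord genes was 21.6 and 63.7 CPM. The 26 genes listed for neurons summed to 58.4 and 151 CPM, the 11 dermomyotome and muscle genes to 439 and 640, and the 8 floor plate genes to 473 and 614. The 8 neural crest genes were about level, at 267 and 263 CPM. The 15 Hedgehog pathway genes went the other way, at 1460 and 1249 CPM. The part of these cells in the difference was not tested, and this ISML_second library is the one with the low mitochondrial share.

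At 120h, where 18 libraries of all 8 lines are available, Nkx6-1, Olig2 and Nkx2-2 were higher in ISML_second than in most libraries of the other sets. How many of all genes did the same was not counted. Nkx6-1 ranged from 0.238 to 14.6 CPM with a median of 1.33, and its 5 ISML_second libraries, each from another line, lay at 8.12 to 14.6 CPM. The 7 ISML_third libraries lay at 0.238 to 2.44, the 2 TruSeq_second libraries at 0.351 and 0.804, and the 4 ISML_first libraries at 0.572 to 9.38. The 1 library outside ISML_second with a level in that range was Del replicate 2, at 9.38 CPM. Olig2 had the same pattern, at 2.40 to 5.43 CPM in ISML_second, 0 to 0.943 in ISML_third, 0.181 and 0.211 in TruSeq_second and 0.393 to 5.30 in ISML_first, with Del replicate 2 again the highest of the last. Nkx2-2 lay at 0.133 to 0.386 CPM in ISML_second and at 0 to 0.181 in the other 13 libraries. These are few counts, 3 to 10 per library in ISML_second, and Del replicate 2 (0.181 CPM) had 4. Nkx6-2, the other ventral gene, did not have this pattern: it lay at 0.530 to 1.31 CPM in ISML_second, 0.572 to 0.650 in ISML_first, 0.311 and 0.387 in TruSeq_second and 0 to 0.932 in ISML_third.

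**Figure D3:**
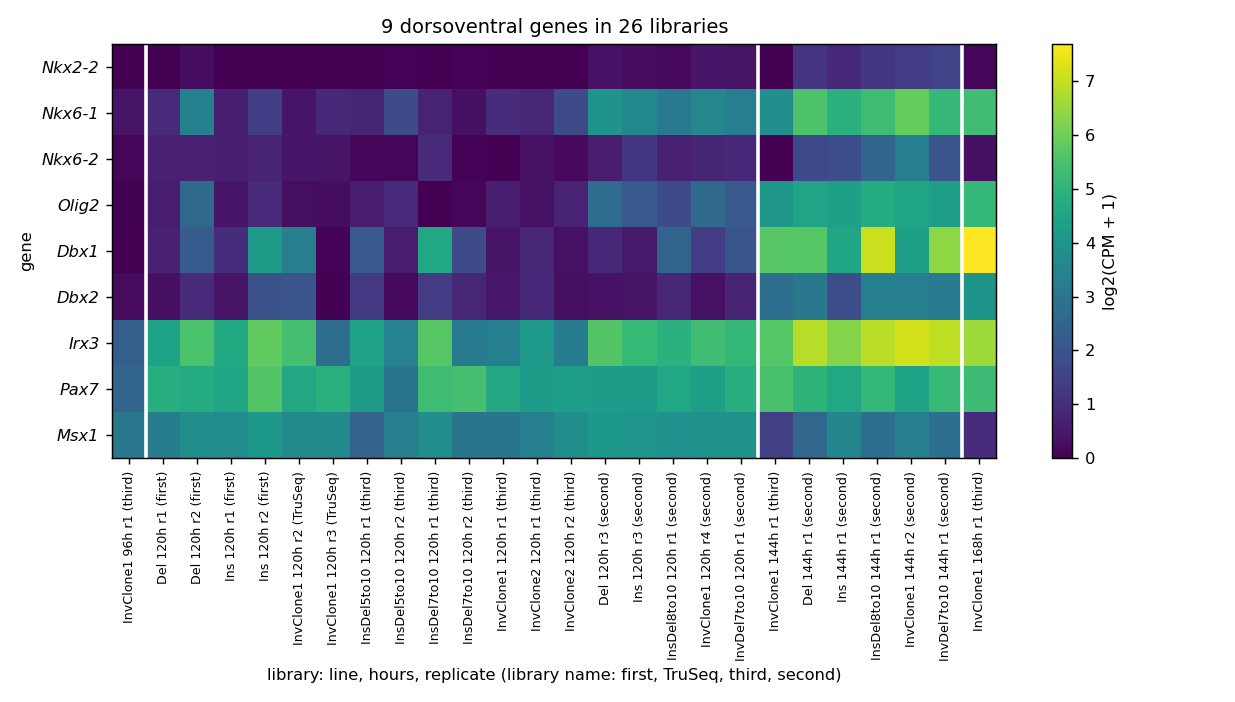
log2(CPM + 1) of 9 genes (vertical axis) in the 26 libraries (horizontal axis), ordered by hours and, within 120h, by library set, with white lines between the times. Nkx6-1 and Olig2 are brighter in the 5 ISML_second libraries at 120h and in Del replicate 2 than in the other 120h libraries, and the 144h and 168h columns are bright for Nkx6-1, Olig2, Dbx1, Dbx2 and Irx3.

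Msx1 showed a like pattern on a smaller scale, at 13.8 to 16.1 CPM in ISML_second, 4.35 to 13.1 in ISML_third, 11.7 and 11.8 in TruSeq_second and 8.53 to 16.2 in ISML_first. Ins replicate 2 (ISML_first) lay just above the ISML_second range, at 16.2 CPM, and the remaining libraries of the other sets lay below it. In Dbx1, Dbx2, Irx3 and Pax7 the ISML_second libraries lay within the range of the others. Dbx1 ranged from 0.0518 to 23.6 CPM over the 18 libraries at 120h, and its highest values were in single libraries of different lines and sets: InsDel7to10 replicate 1 (23.6), Ins replicate 2 (17.3) and InvClone1 replicate 2 (8.75). The other replicates of these lines had 2.43 CPM in InsDel7to10, 1.00 and 0.469 in Ins, and 0.323, 0.0518 and 1.66 in InvClone1. Dbx2 was highest in InvClone1 replicate 2 (3.09 CPM), Ins replicate 2 (2.72) and InsDel7to10 replicate 1 (1.59), the same 3 libraries. Irx3 ranged from 5.70 to 55.02 CPM, Pax7 from 6.86 to 48.6 and Msx1 from 4.35 to 16.2, so that Msx1 varied least, by 3.72-fold.

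A term for the library set in a fit of all 26 libraries measures the ISML_second level against ISML_first, a contrast chosen after the values had been seen. ISML_first holds only Del and Ins libraries at 120h, so the difference is measured within these groups alone. It does not measure ISML_second against ISML_third. Nkx6-1 was 2.42 ± 0.80 higher in log2 (edgeR adjusted p = 0.142), Nkx2-2 2.15 ± 0.99 higher (adjusted p = 0.268) and Olig2 1.62 ± 0.78 higher (adjusted p = 0.284). None of the 9 genes passed the threshold, which 2.3% of 17769 genes did, and 1 of the 9, Nkx6-1, had an unadjusted p under 0.05, as 19.2% of all genes had. Among the lists of other cells, lateral mesoderm and heart differed most between these sets, with a median log2 fold change of 2.87, 7 of 8 tested genes at an unadjusted p under 0.05 and 1 called, Myl7 (5.47 ± 1.12, edgeR adjusted p = 0.0244), which was named after its value was seen. Its summed level was 13.0 to 31.1 CPM in ISML_second and 2.29 to 13.4 in the other libraries at 120h. The summed endoderm and pancreas genes ran from 185 to 247 CPM in ISML_second and from 27.9 to 171 in the other libraries at 120h, and the notochord genes from 87.0 to 118 against 38.3 to 97.3. Their part in the ventral levels was not tested.

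At 120h, where several lines have replicates, 4 pairs of lines were compared. These comparisons came from that fit of all 26 libraries, in which group and library set were the terms, and none of the 9 genes tested was called in any of the 4. For Ins against Del (0.00563% of 17769 genes called) the levels of Nkx6-1 were 0.900, 9.38 and 14.6 CPM in Del and 0.572, 1.68 and 11.1 in Ins. The log2 fold change was -1.48 ± 0.81, with an edgeR adjusted p of 1. Olig2 read 0.509, 5.30 and 5.43 CPM in Del and 0.393, 0.918 and 3.47 in Ins, a log2 fold change of -1.55 ± 0.78 (edgeR adjusted p = 1). For both genes the lines overlapped. Del and Ins libraries of the same replicate number deviated together and were taken as pairs, and Ins was the lower one in 3 of 3 pairs for both genes. Ins was lower in 2 of 3 pairs for Nkx2-2, in 1 for Nkx6-2, Dbx1, Irx3, Pax7 and Msx1, and in 0 for Dbx2. The share of all genes with 3 of 3 was not counted. Dbx1 had 1.59 ± 1.59, Irx3 0.02 ± 0.76, Pax7 0.29 ± 0.32 and Msx1 0.23 ± 0.33 as log2 fold change. An unadjusted p under 0.05 was reached by 188 genes (1.06%) and by 0 of the 9. With the replicate number as a block, 2 of 14724 genes and 0 of the 7 members tested were called. Of these 14724 genes 516 had an unadjusted p under 0.05, and of the 7 members 1, Olig2. In that fit Olig2 had -1.28 ± 0.45 (unadjusted p = 0.0296) and Nkx6-1 -1.19 ± 0.49 (unadjusted p = 0.0702), with an edgeR adjusted p of 0.995 for both. Without the filter on low counts 89 genes were called. Among them were 3 of the 9, Dbx1 (edgeR adjusted p = 1.37e-07), Nkx6-1 (9.98e-06) and Olig2 (3e-04). The lines overlapped for Dbx1 too, at 0.626, 3.63 and 0.816 CPM in Del and 1.00, 17.3 and 0.469 in Ins. The reported fit, with the filter, called none of these 3.

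InvClone1 was compared with Ins (0.0169% of genes called), with Ins as the shared group of this comparison and the one before. The 4 InvClone1 libraries come from 3 library sets, and Nkx6-1 read 0.969, 0.351, 0.804 and 10.7 CPM in them. Its log2 fold change was 0.15 ± 1.02 and that of Olig2 0.52 ± 0.98 (edgeR adjusted p = 1 for both). Msx1, the least variable gene, had 0.08 ± 0.50 and Pax7 -0.22 ± 0.47. The standard errors of Dbx1 and Dbx2, 2.66 and 2.15, were larger than their folds of -0.28 and -0.31. An unadjusted p under 0.05 was found for 169 genes (0.951%) and for 0 of the 9.

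The other 2 comparisons were within the ISML_third set, with 2 libraries per group, and share InsDel5to10. Against InvClone2, InsDel5to10 had log2 fold changes of 0.03 ± 1.07 for Nkx6-1, 0.54 ± 1.16 for Olig2, 1.91 ± 2.31 for Dbx1, -0.60 ± 0.41 for Pax7 and -0.74 ± 0.41 for Msx1. The edgeR adjusted p of the 9 genes was 0.771 or more, and 0.152% of all genes were called (6.53%, or 1161 genes, at an unadjusted p under 0.05, and 0 of the 9). Without the filter Dbx1 was among 383 genes called.

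InsDel7to10 against InsDel5to10 had 0.253% of genes called, and Pax7 came nearest to the threshold. It read 38.7 and 41.5 CPM in InsDel7to10 and 17.6 and 6.86 in InsDel5to10, without overlap. The log2 fold change was 1.72 ± 0.41, with an unadjusted p of 0.00135 and an edgeR adjusted p of 0.14. DESeq2 called it, at 1.70 and an adjusted p of 0.00155. Nkx6-2 had 2.30 ± 1.01 (unadjusted p = 0.0415, edgeR adjusted p = 0.446) from 0.932 and 0.0476 CPM against 2 counts in each InsDel5to10 library, and it was called when InsDel7to10 replicate 2 was left out (3.26, edgeR adjusted p = 0.0151). Olig2 had 2 counts in the 2 libraries of InsDel7to10 and 32 in those of InsDel5to10, 14.5 times as many per library size, with a 95% interval from counting error of 3.70 to 125, and its edgeR adjusted p was 0.505. Of all genes 1895 (10.7%) had an unadjusted p under 0.05, and of the 9 there were 2, Pax7 and Nkx6-2. Without the filter 957 genes were called, among them 5 of the 9: Dbx1, Irx3, Nkx6-1, Olig2 and Pax7.

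**Figure D4:**
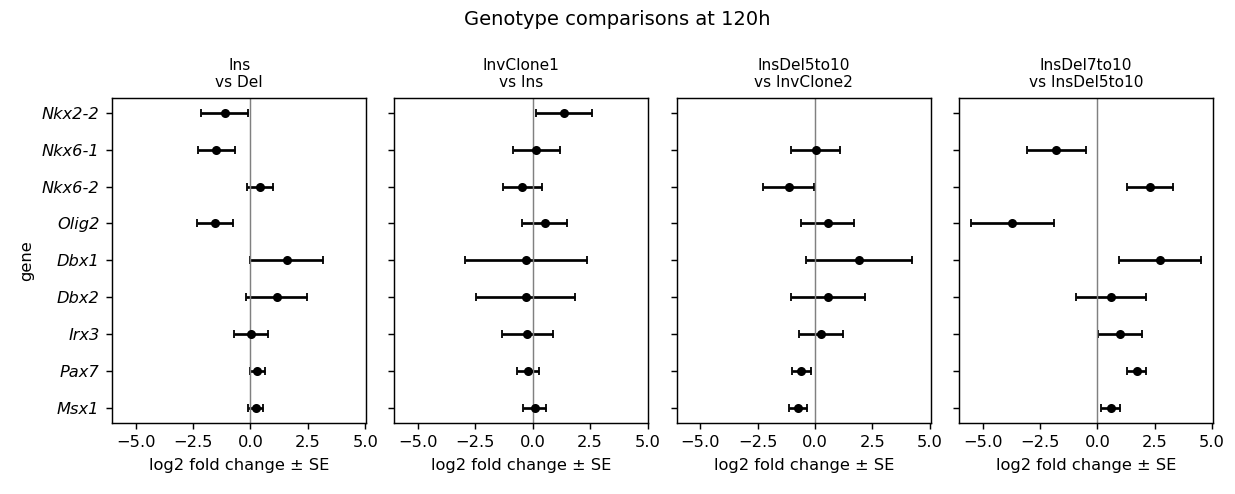
log2 fold change ± SE of 9 genes (vertical axis) at 120h in 4 genotype comparisons, from the fit of all 26 libraries, with the zero line in grey. Nkx2-2 is left out of the 2 right panels because both groups had 3 counts or fewer, and the Pax7 point of InsDel7to10 against InsDel5to10, at 1.72 ± 0.41, is the farthest from 0 in units of its error.

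The signals that pattern the neural tube were followed through the stage fit. Of 15 Hedgehog pathway genes, all tested, 4 were called higher and 4 lower at 144h, and their median log2 fold change was -0.06. Scube2, which helps release the ligand, rose by 2.14 ± 0.16 and Hhip, a ligand-binding inhibitor that the pathway induces, by 1.06 ± 0.14, while Cdon, a co-receptor, fell by 0.56 and Disp1, needed for ligand release, by 0.49. With 1 library left out these counts were 2 to 5 higher and 2 to 4 lower, the lowest of both without either InsDel8to10 library. Either Ins library left out also gave 2 lower. Of 8 floor plate genes 6 were tested, 2 were called higher and 1 lower, and 0 to 5 were called higher with 1 library left out. The 0 came without the 144h library of InsDel8to10 or Del and the 5 without either InvClone1 library. Shh itself had 0.68 ± 0.16 (edgeR adjusted p = 0.0216) and Foxa2, the floor plate determinant, 0.53 ± 0.15 (adjusted p = 0.0483), and Sulf1, a sulfatase, fell by 0.35. Foxa2 was higher in 5 of 5 lines, but its call was lost at a minimum count of 50, in limma on FPKM and without any 1 of 8 libraries, those of lines other than InvClone1. The call of Shh was lost without either library of Del or InsDel8to10. Shh went from 4.85 ± 0.685 to 7.70 ± 1.28 CPM (mean ± SD, n = 5).

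Of 19 genes of the roof plate and of dorsal BMP and Wnt signalling, 16 were tested, 5 were called higher and 3 lower, with a median of 0.32. Zic1, a dorsal neural zinc finger factor, rose by 2.52 ± 0.25, and the BMP-responsive genes Id3 and Id1 rose by 1.03 ± 0.12 and 0.74 ± 0.10, while Zic2 fell by 0.95. Leaving out any 1 library gave 3 to 7 higher and 1 to 3 lower. The 3 higher came without either InsDel8to10 library, and the 1 lower without either InvDel7to10 library. Among 11 retinoic acid genes 3 were called higher and 5 lower: Crabp2, a carrier protein, rose by 1.70 ± 0.08, and Aldh1a2, the synthesizing enzyme, Stra6 and Dhrs3 fell by 0.97, 0.91 and 1.33.

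Of 18 other genes that mark domains of the neural tube 14 were tested, 12 were called higher and 1 lower, with a median of 1.77. Pax6 rose by 2.98 ± 0.15, and the proneural factors Neurog2 and Neurog1 rose by 3.82 ± 0.23 and 5.16 ± 0.33. Of 12 general neural progenitor genes, all tested, 9 were called higher and 1 lower, with a median of 1.98. Those with the smallest adjusted p were Pou3f2 (3.73 ± 0.08), Sox21 (2.38 ± 0.09), Sox1 (1.92 ± 0.09) and Rfx4 (2.72 ± 0.15). Their summed level went from 886 to 1059 CPM at 120h to 1246 to 1879 CPM at 144h. The log2 folds of Dbx1 (4.84), Olig2 (2.47) and Nkx6-2 (2.30) were above the median of that list. Those of Nkx6-1 (1.94), Irx3 (1.66), Pax7 (0.46) and Msx1 (-1.04) were below it. Dbx2 and Nkx2-2 are left out here, because a difference was built into their being tested. No test of the members against that list was made. Of 26 genes listed for the neurons of these domains 17 were tested, 6 were called higher and 3 lower. The highest mean CPM of that list at 120h were Sim1 (37.8), Lhx1 (16.9), Evx1 (14.7) and Mnx1 (14.1), while the general neuron gene Elavl3 stood at 1.23. Whether the reads of this list came from neurons was not tested. Elavl3 rose by 4.25 ± 0.21, Tubb3 by 2.08 ± 0.14 and the motor neuron and V2 gene Lhx3 by 5.72 ± 0.47, and Lhx1 fell by 2.10.

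Markers of other cells that share these genes moved as well. Of 9 dermomyotome and muscle genes tested of 11 listed, 7 were called lower and 1 higher: Foxc2 and Meox1 fell by 1.27 and 1.07, and the sclerotome gene Pax1 rose by 1.11 ± 0.14. The list summed to 1048 to 1215 CPM at 120h and 567 to 695 at 144h, beside the small rise of Pax7 and the fall of Msx1. Its largest parts at 120h were Meox1 (mean 562 CPM) and Foxc2 (175), and the muscle genes Myf5, Myod1 and Myog had means under 1 CPM at both stages. The part of dermomyotome in the level of Pax7 was not tested. Of 9 endoderm and pancreas genes 3 were called higher (5 without either InvClone1 library) and 2 lower, with Neurog3 at 3.54 ± 0.27 and Pdx1 at 3.36 ± 0.29, both pancreatic factors, Krt8 at 1.04 ± 0.13 and Sox17 lower by 0.96. Pdx1 went from 0.180 ± 0.0907 to 1.89 ± 0.506 CPM, and Nkx2-2 from 0.265 ± 0.104 to 1.38 ± 0.418 CPM. The part of pancreatic cells in the levels of Nkx2-2 and Nkx6-1 was not tested. Of 7 notochord genes 6 were tested, with T lower by 1.89 and Shh, Foxa2 and Foxj1 (0.91) higher, and the call of Foxj1 was lost without any 1 library of a line other than InvClone1. Of 8 neural crest genes 4 were tested and 2 called higher, Ednrb (3.28 ± 0.18) and Sox9 (1.32 ± 0.10), and Sox10 and Foxd3, which define that type, were at or under 0.730 CPM and 0.439 CPM in every library. Of 9 genes of lateral mesoderm and heart 5 were tested and 3 called higher, Gata4 (2.17 ± 0.14), Tbx20 (1.65 ± 0.36) and Hand2 (1.99 ± 0.50), and the calls of Tbx20 and Hand2 were lost in several fits with a library left out. In the genotype comparisons Sufu, a Hedgehog pathway inhibitor, was the 1 gene of these 12 lists that was called, in InsDel5to10 against InvClone2 (0.89 ± 0.15, edgeR adjusted p = 0.0396), and it was not called when any 1 of the 4 libraries was left out.

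Across the 26 libraries, Nkx6-1 with Olig2 and Dbx1 with Dbx2 were the pairs of members that followed each other most closely. The values that follow are Pearson's r of log2(CPM + 1), given as a description, since libraries share stage, line and library set. Nkx6-1 and Olig2 had r = 0.974 (Spearman's rho 0.969), which was 0.972 over the 18 libraries at 120h. It was 0.895 between the residuals of a linear fit with separate terms for library set and stage. That fit had no term for their combination, so differences between sets at a single stage can remain. Such values are called adjusted for set and stage. Dbx1 and Dbx2 had 0.951 (rho 0.918), 0.871 at 120h and 0.808 adjusted for set and stage. Irx3 went with Dbx1 (0.822) and Dbx2 (0.799), and kept 0.747 and 0.784 adjusted for set and stage.

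The ventral pair and the intermediate pair did not go together apart from the stages. Olig2 and Dbx1 had r = 0.747 over 26 libraries, -0.109 over the 18 at 120h and -0.108 adjusted for set and stage. Nkx6-1 and Dbx1 had 0.657, -0.116 and -0.148. Nkx2-2 and Nkx6-1 had 0.794 over 26 libraries and 0.0214 adjusted for set and stage, so their relation was not seen once these terms were taken out. Msx1 and Dbx2 had -0.629 over 26 libraries and -0.00891 at 120h.

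**Figure D5:**
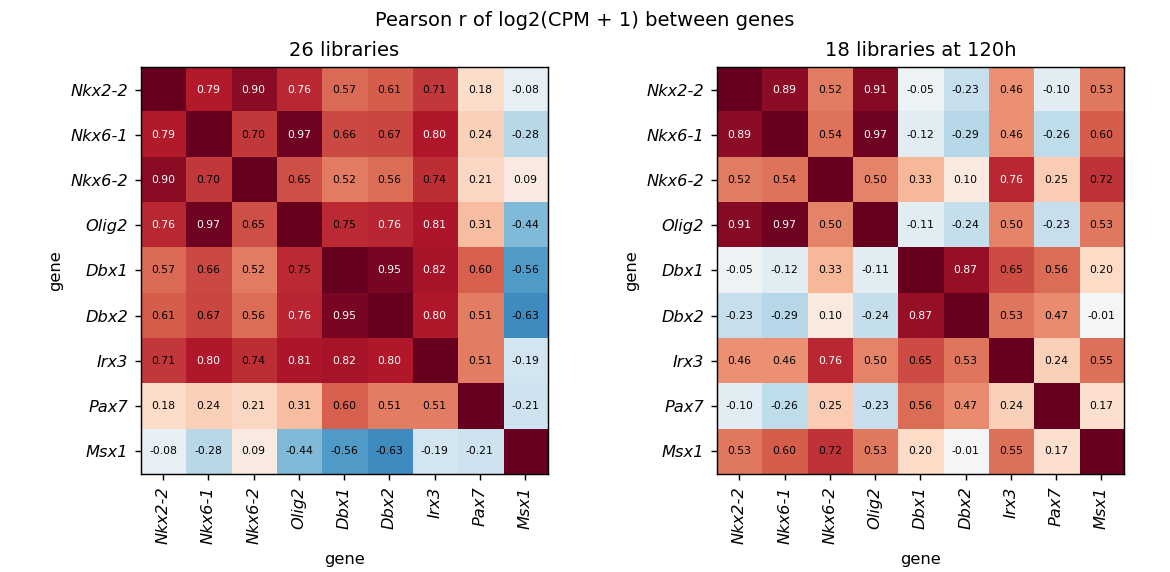
Pearson's r of log2(CPM + 1) between 9 genes (both axes) over all 26 libraries and over the 18 libraries at 120h, red for positive and blue for negative. Nkx6-1 with Olig2 and Dbx1 with Dbx2 stay at 0.871 or more in both panels, and the block of Nkx6-1 and Olig2 with Dbx1 and Dbx2 is positive over 26 libraries and slightly negative at 120h.

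Among 13279 genes with a mean of at least 1 CPM, the nearest to Nkx6-1 by r over the 26 libraries were Olig2 (0.974), Angpt2 (0.951) and Hhip (0.951). The nearest to Olig2 were Nkx6-1, Hhip (0.963) and Neurog2 (0.957). For Dbx1 they were Sox1ot (0.961), Sox2ot (0.955) and Pou3f2 (0.954), and for Dbx2 Adamtsl1 (0.962), Sox2ot (0.962) and Megf10 (0.960). Irx3 was nearest to Sox3 (0.972), Irx5 (0.968), its neighbour in the Iroquois cluster, and Fam181b (0.968). Pax7 had no gene above 0.864, with Glrb (0.864), Tspan13 (0.848) and Rnf227 (0.839) nearest. Msx1 was nearest to Fgf8 (0.913), Col13a1 (0.899) and Fgf17 (0.886), and Nkx6-2 to Col5a1 (0.904), Arhgap22 (0.901) and Col9a2 (0.883). These values describe likeness over libraries that share stage and library set.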

How the data were processed

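Polyadenylated RNA of 26 gastruloid libraries was sequenced by the authors. They deposited raw read counts for 55141 genes and FPKM, which are scaled to transcript length and depth, for 55138. The submitters' processing notes list the tools cutadapt 1.18, STAR 2.7.10a, Cufflinks 2.2.1 and the build mm10. HTSeq appears as a counter in the table's name alone. Annotation and strand setting: not given in the sources used here, so overlapping or antisense genes are uncertain. Of the table columns, 8 (4 per table) matched no sample and were not used.

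The count tests used edgeR 4.0.16 (R 4.3.3) with robust quasi-likelihood fits, TMM, a filter at a minimum count of 10, Benjamini-Hochberg over all genes tested, threshold 0.05. The stage fit had 15011 genes and 4 residual degrees of freedom. The fit of 26 libraries had 17769 genes and 8, and it lets a lone library take the spread of the replicated groups. Folds are log2 with the SE of the fit. CPM were counts over TMM-adjusted totals. The limit for 0 counts is 3 counts, the interval of a ratio of counts is exact (95%), and both cover counting error only. Alternatives were DESeq2 1.42.0 on the counts, edgeR with DESeq2 size factors, a minimum count of 50 or no filter, fits without the line or library term, the compared libraries alone with and without a replicate block, limma 3.58.1 on log2(FPKM + 0.1), other scalings of the levels and leaving out each library. The script was tested on simulated data. Replicates of a group differed by a chi-square of 14.7 to 200 per degree of freedom over 16 pairs, beyond sampling noise.

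The members and the 12 gene lists (153 entries) were chosen with earlier results of these data known. Genes named were the 10 members in every comparison, up to 4 per list in the stage comparison and up to 2 per list in the genotype comparisons, by smallest adjusted p past the threshold, and the 3 nearest genes by Pearson's r for each member with a mean of at least 1 CPM. Sox10 and Foxd3 were named after their values were seen, and some genes that the rule names are not reported here. Promoter windows came from the RefSeq table of GRCm38.p6 (mm10) and the Gli core and TAATTA were the motifs planned.

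Same-numbered replicates of Ins and Del deviated together from their group means (r = 0.627, 0.408 and 0.770), and replicate 3 of both is ISML_second and the other 2 ISML_first. Their numbers were taken to pair them.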

Additional observations from a re-analysis of the deposited data

Results flagged for a closer look

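In the only group of 4 libraries, InvClone1 at 120h, 9 genes with more than 3 counts were looked at for a library that stands apart from the other 3, by a gap over 0.829 of the whole range. Chance passes this limit in about 5% of groups, and the 4 genes found are not independent of each other. Replicate 4, the ISML_second library, was highest and apart for Nkx6-1 (10.7 CPM), Olig2 (5.25 CPM) and Nkx2-2 (0.386 CPM). Its gap was 0.94, 0.927 and 0.933 of the range. Replicate 2, a TruSeq_second library and the one with counts in the largest share of genes, was highest and apart for Dbx2 (3.09 CPM), with a gap of 0.873.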

How the results depend on the processing

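Depth limited what could be said of Nkx2-2, Nkx6-2 and Dbx2 at 120h, where many libraries held fewer than 10 counts. In the stage comparison Nkx6-1, Nkx6-2, Olig2, Dbx1, Irx3 and Msx1 kept direction and call in every fit that tested them. Pax7 kept its direction but not its call. Nkx2-2 and Dbx2 also kept both, but a difference was built into their being tested, so this is no support. The count of the 9 called was 7 to 9 (7 of 7 at a minimum count of 50). Genes called over the whole table numbered 2280 against 4831 without InvClone1, a choice made after the data were seen, and 1379 to 4853 with each library left out, the upper values coming without either InvClone1 library. The median levels kept their direction on the authors' FPKM and on totals without TMM.

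For Ins against Del, genes called were 1 against 2 with DESeq2, 89 without a filter, 0 from the compared libraries alone (82 at an unadjusted p under 0.05) and 2 with the replicate block, and 1 with each library left out, with 3 of the 9 called without a filter. For InvClone1 against Ins they were 3 against 9 without a filter, 0 with the replicate block (1216 at an unadjusted p under 0.05), and 3 to 303 with a library left out, the upper without InvClone1 replicate 4. For InsDel5to10 against InvClone2 they were 27 against 46 with DESeq2, 383 without a filter (1 of the 9), 6 without the library term, 932 with the replicate block and 3 to 9 with a library left out. For InsDel7to10 against InsDel5to10 they were 45 against 289 with DESeq2 (1 of the 9), 957 without a filter (5 of the 9), 7 without the library term, 4 from the compared libraries alone, 3 with the replicate block, 4 with crossed numbers (chosen after the data were seen, since r was -0.181) and 3 to 939 with a library left out, the upper without InsDel7to10 replicate 2 (0 to 1 of the 9). The cause was not tested. The block changed the call of none of the 9. Same-numbered libraries of InvClone1 and Ins had r = 0.202, 0.494 and 0.0876 and come from different library sets, so their numbers are not taken as pairs. Those of InsDel5to10 and InvClone2 had 0.437, above the lowest r of Ins and Del, 0.408. Whether they are pairs is therefore not settled by r, and the reported fit of this comparison does not pair them.

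Folds that changed sign were of genes not called in the reported fits, though Dbx1 (Ins against Del) and Irx3 (InsDel7to10 against InsDel5to10) were called without a filter, and Nkx6-2 (InsDel7to10 against InsDel5to10) with InsDel7to10 replicate 2 left out. For Ins against Del, Irx3 gave -0.000512 without the library term and -0.004842 from the compared libraries alone. For InvClone1 against Ins, without the library term, from the compared libraries alone and with the replicate block, Msx1 gave -0.365, -0.357 and -0.530, Nkx6-1 -0.468, -0.473 and -1.95, and Olig2 -0.0327, -0.0372 and -2.03. With each library left out, the Ins against Del fold ran from -0.97 to 2.26 for Dbx1, -0.42 to 1.71 for Dbx2, -0.45 to 0.29 for Irx3, -0.0448 to 0.60 for Nkx6-2 and -0.13 to 0.53 for Pax7. That of InvClone1 against Ins ran from -3.20 to 1.13 for Dbx1, -1.11 to 0.46 for Dbx2, -0.76 to 0.0191 for Irx3, -0.27 to 1.07 for Msx1, -0.91 to 1.44 for Nkx6-1, -0.52 to 3.13 for Nkx6-2 and -1.72 to 1.57 for Olig2. That of InsDel5to10 against InvClone2 ran from -1.97 to 1.69 for Dbx2, -0.39 to 0.79 for Irx3 and -1.07 to 1.06 for Nkx6-1, and that of InsDel7to10 against InsDel5to10 from -0.31 to 3.13 for Dbx2, -0.89 to 1.77 for Irx3 and -0.88 to 3.26 for Nkx6-2.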
